A study of Arabidopsis thaliana with 12 samples.

Results

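Transcripts of the seed's reserve proteins were followed in whole Arabidopsis thaliana seedlings aged 7 days. The group has 10 genes, chosen by name and gene ID out of 21271 listed: the cruciferin genes CRA1 (AT5G44120), CRU2 (AT1G03880) and CRU3 (AT4G28520), the albumin genes SESA1 to SESA4 (AT4G27140, AT4G27150, AT4G27160, AT4G27170) and SESA5 (AT5G54740), and the oleosin genes OLEO1 (AT4G25140) and OLEO2 (AT5G40420). All 10 were listed for WT, trb45 line 1 and trb123. For trb45 line 2, 8 were listed, and CRU2 and SESA4 were not.

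TRB proteins bind the telomere repeat and single sites along the chromosomes, and the study asked what TRB4 and TRB5 do at genes under Polycomb control. Its 12 libraries form 4 groups of 3: untreated WT plants of the accession Col-0, the double mutant trb45 as lines N°1 and N°2, and the triple mutant trb123. All plants grew on plates with sucrose under long days, and whole plants were ground. A library therefore mixes all organs, and in such bulk RNA more cells of a type and more RNA per cell cannot be told apart.

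Cruciferins and albumins are the main reserve proteins of the Arabidopsis seed. They are made in the maturing embryo, stored in protein vacuoles and broken down after germination. Oleosins coat the oil bodies of the same cells. In the embryo these genes are driven by the B3 factors ABI3, FUS3 and LEC2, which bind the RY element (CATGCA), together with bZIP factors such as ABI5 and EEL that bind G-box-like elements. In seedlings the VAL proteins and the Polycomb complexes keep the programme silent.

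The 5 albumin genes share a motif arrangement, so the 100 bases before each annotated gene start are shown here, read 5′ to 3′ from the TAIR10.1 genome. Capitals mark RY elements (CATGCA or its complement TGCATG) and the G-box CACGTG. SESA1 to SESA4 lie next to each other on the plus strand of chromosome 4, with windows at chr4:13607229-13607328, chr4:13609241-13609340, chr4:13611696-13611795 and chr4:13613496-13613595. The SESA5 window is chr5:22239188-22239287, minus strand.
SESA1: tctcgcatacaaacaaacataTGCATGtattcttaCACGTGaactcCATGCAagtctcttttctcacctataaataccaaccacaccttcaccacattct
SESA2: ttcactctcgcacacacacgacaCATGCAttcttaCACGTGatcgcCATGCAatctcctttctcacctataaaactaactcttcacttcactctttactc
SESA3: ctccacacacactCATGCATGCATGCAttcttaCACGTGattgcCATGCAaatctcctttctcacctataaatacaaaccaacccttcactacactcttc
SESA4: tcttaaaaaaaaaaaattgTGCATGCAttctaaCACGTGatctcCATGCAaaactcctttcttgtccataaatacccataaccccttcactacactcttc
SESA5: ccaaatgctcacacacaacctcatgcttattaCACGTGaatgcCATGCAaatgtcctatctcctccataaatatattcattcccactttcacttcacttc
In each of the 5 sequences a G-box began 65 to 68 bases before the gene start and an RY element followed it, beginning at 54 to 57 bases. Within a window of 250 bases, SESA3 held 7 RY matches and SESA4 held 6, with overlapping matches counted separately.

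The cruciferin and oleosin genes were less alike. The full 250 bases before the start are shown for CRA1 (chr5:17758337-17758586, minus strand) and OLEO1 (chr4:12900180-12900429, plus strand), the members of their classes with the highest mean in trb123.
CRA1: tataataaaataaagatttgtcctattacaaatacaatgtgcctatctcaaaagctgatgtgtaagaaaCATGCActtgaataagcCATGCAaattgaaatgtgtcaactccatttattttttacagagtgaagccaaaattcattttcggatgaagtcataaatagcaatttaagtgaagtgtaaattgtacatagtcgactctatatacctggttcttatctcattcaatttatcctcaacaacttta
OLEO1: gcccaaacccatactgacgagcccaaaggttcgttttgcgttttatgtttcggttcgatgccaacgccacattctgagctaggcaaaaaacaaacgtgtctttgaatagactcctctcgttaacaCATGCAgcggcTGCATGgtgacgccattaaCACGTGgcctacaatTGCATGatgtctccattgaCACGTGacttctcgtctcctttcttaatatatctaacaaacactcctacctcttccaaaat
CRA1 had 2 RY elements and no G-box, and OLEO1 had 3 RY elements and 2 G-boxes. Over the 250-base window, both strands searched, 9 of the 10 genes held an RY element, against 8.4% of 27443 protein-coding genes. A G-box was found in 6 of 10, against 6.5% of all. The telobox AAACCCTA, the plant telomere repeat motif bound by TRB proteins, was found in 0 of 10 windows and in 4.5% of all. These are letter matches in 1 window and say nothing of binding.

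The labels of the mutants held at the transcript level. TRB4 lay between 8.16 and 11 FPKM in WT and between 2.96 and 6.1 in trb45, and TRB5 between 11 and 12.5 in WT and between 2.85 and 3.51 in trb45. In trb123, TRB1, TRB2 and TRB3 lay at 0.65 to 3.12 FPKM against 6.34 to 13.3 in WT. FPKM are fragments scaled to gene length and library total, so levels can be compared between genes. Depths read off the steps of the FPKM values were 22525000 to 24395000 fragments per library. The libraries also split on 226 genes that were lower by at least 1 (log2) in line 1 replicate 3 than in the other libraries of that line. On a scale with line 1 replicates 1 and 2 at 0 and replicate 3 at 1, WT lay at -0.02 to 0.02, line 2 at 0.93 to 0.99 and trb123 at 0.86 to 0.9. The split between trb123 or line 2 and WT therefore cannot be told apart from the genotypes. The labels do not say whether replicates are separate plantings, so p-values measure only the spread between these samples.

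In trb123 all 10 storage and oleosin genes were higher than in WT, in every library. CRA1, the most abundant cruciferin in trb123, had 0.62, 12.4 and 12.7 FPKM in WT replicates 1, 2 and 3 and 48.4, 40.4 and 45.5 in trb123. SESA2, the most abundant albumin, had 0.17, 4.64 and 1.33 FPKM in WT and 54.9, 19.9 and 48.6 in trb123. OLEO1, which encodes the main oleosin of the seed, had 0.8, 4.1 and 2.19 FPKM in WT and 22.4, 8.14 and 21.7 in trb123. The groups did not overlap for any of the 10 genes. The same held, in the same direction, for 39.6% of the 18700 genes tested. With 3 libraries against 3 the exact two-sided permutation p of such a gene is 0.1, the smallest that this design allows. Within trb123, replicate 2 was the lowest library for 10 of 10 genes.

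**Figure D1:**
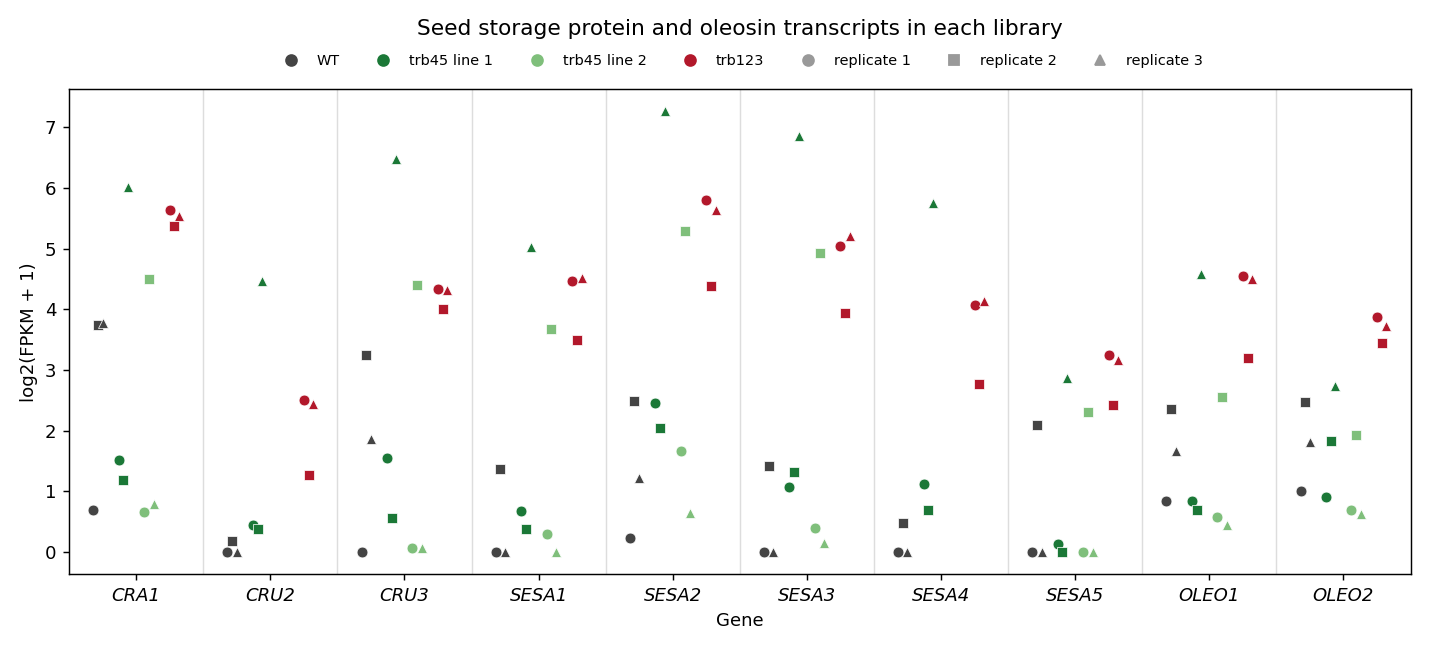
FPKM of the 10 genes in each library, as log2(FPKM + 1). Colour gives the group and shape the replicate number; CRU2 and SESA4 have no points for trb45 line 2. The trb123 points lie above all WT points for each gene, and line 1 replicate 3 (dark green triangle) and line 2 replicate 2 (light green square) lie above the other libraries of their lines.

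The other cruciferin genes were lower. CRU3 was at 0, 8.49 and 2.62 FPKM in WT and at 19.2, 15 and 19 in trb123. CRU2 was at 0, 0.14 and 0 FPKM in WT and at 4.65, 1.4 and 4.41 in trb123. CRU2 was thus close to undetected in WT, while CRU3 was detected in 2 of 3 WT libraries.

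Among the other albumins, SESA3 was listed at 0, 1.67 and 0 FPKM in WT and at 32, 14.3 and 36 in trb123. SESA1 was at 0, 1.57 and 0 FPKM in WT and at 21.1, 10.3 and 21.8 in trb123. SESA4 was at 0, 0.39 and 0 FPKM in WT and at 15.7, 5.83 and 16.7 in trb123. These 3 tandem neighbours of SESA2 were detected in WT replicate 2 and listed at 0 in the other WT libraries. SESA5, on chromosome 5, was at 0, 3.25 and 0 FPKM in WT and at 8.5, 4.37 and 7.93 in trb123, where it was the lowest of the albumins in each library. OLEO2, the other oleosin, was at 1.01, 4.55 and 2.52 FPKM in WT and 13.6, 9.86 and 12.2 in trb123.

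Fold changes are differences of mean log2(FPKM + 1), tested with limma, and a gene is called at an adjusted p under 0.05. In trb123 against WT, 8 of 10 genes were called, all higher, where 59.4% of all genes were called and 33.9% were called higher. Of these 8, CRU2 and SESA4 come from a separate fit of the WT and trb123 tables, which called 66.7% of its 18629 genes, 38.5% higher. They passed its filter on low values only through trb123, so their calls add no support. The other 8 genes each reached 1 FPKM in 3 or more libraries outside trb123, and 6 of these 8 were called. SESA3 rose most, by 4.26 ± 1.41 (SE, limma adjusted p = 0.019), followed by SESA2 with 3.96 ± 1.3 (limma adjusted p = 0.0184) and SESA1 with 3.7 ± 1.11 (limma adjusted p = 0.0116). OLEO1 rose by 2.46 ± 0.88 (limma adjusted p = 0.028), SESA5 by 2.25 ± 0.8 (limma adjusted p = 0.0266) and OLEO2 by 1.91 ± 0.46 (limma adjusted p = 0.00294). In the separate fit SESA4 rose by 3.5 ± 0.32 and CRU2 by 2 ± 0.28.

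CRA1 and CRU3 were not called. Their fold changes were 2.78 ± 1.25 (limma adjusted p = 0.0722) and 2.52 ± 1.4 (limma adjusted p = 0.138). The fit shares 1 estimate of spread among all groups, and the standard errors of the 8 genes, 0.46 to 1.41, stood against a median of 0.13 over all genes. In a fit of WT and trb123 libraries alone, CRA1 (adjusted p = 0.00417, limma) and CRU3 (adjusted p = 0.00472, limma) passed too, and all 10 were called. In those 6 libraries 9 of the 10 genes, all but OLEO2, reached the filter only through trb123, so this count adds no support. With all 12 libraries but 1 in the fit, the count changed most for these: 4 genes were called without WT replicate 1, 5 without WT replicate 3, and 2 without trb123 replicate 1 or without trb123 replicate 3. Without trb123 replicate 2 it was 6, and without line 1 replicate 3 or line 2 replicate 2 it was 10 or 9. Without either of these trb45 libraries, SESA1 and SESA5, like CRU2 and SESA4, reached the filter only through trb123. The higher counts therefore add no support. CRU2 and SESA4 fell below the filter wherever a trb123 library was left out. The share of all genes called was not taken for the fits with a library left out, so these counts cannot be set against it. The median fold change was 2.65 over the 8 genes and 0.07 over all genes.

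In the trb45 lines the storage genes were set apart by single libraries. CRA1 had 1.85, 1.27 and 63.2 FPKM in line 1 replicates 1, 2 and 3 and 0.59, 21.5 and 0.73 in line 2. SESA2 had 4.51, 3.12 and 152 FPKM in line 1 and 2.18, 38.1 and 0.56 in line 2. CRU3 had 1.94, 0.47 and 87.9 FPKM in line 1 and 0.05, 20.2 and 0.05 in line 2. Line 1 replicate 3 and line 2 replicate 2 were thus high and the other 4 trb45 libraries low. At the estimated depths these CRU3 values stand for about 3817 fragments in line 1 replicate 3, 868 in line 2 replicate 2 and 2.2 in line 2 replicate 1.

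The same libraries were high for the albumins and oleosins. SESA3 had 1.11, 1.49 and 114 FPKM in line 1 and 0.32, 29.3 and 0.11 in line 2, and SESA1 had 0.6, 0.3 and 31.6 and then 0.23, 11.8 and 0. SESA5 had 0.1, 0 and 6.33 FPKM in line 1 and 0, 3.93 and 0 in line 2. OLEO1 had 0.8, 0.61 and 22.9 FPKM in line 1 and 0.5, 4.91 and 0.36 in line 2. Each of these genes thus peaked in line 1 replicate 3 and line 2 replicate 2, in the latter at a lower level. OLEO2 moved least, with 0.87, 2.57 and 5.64 FPKM in line 1 and 0.62, 2.81 and 0.54 in line 2. Of the genes listed for line 1 only, CRU2 had 0.36, 0.31 and 21.1 FPKM and SESA4 had 1.17, 0.62 and 52.7.

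Line 1 replicate 3 was the highest library of its line for 10 of 10 genes, and for 9 of them it stood at least 1 (log2) above both others. Over all genes tested, 21 of 18700 (0.112%) did so, and 7 of the 21 were storage or oleosin genes. SESA3 was 87.8-fold above the mean of the other libraries of line 1, CRA1 was 40.5-fold above and OLEO2 was 3.3-fold above. Line 2 replicate 2 was the highest of its line for 8 of 8 genes, all by at least 1 (log2), and these 8 were among 10 such genes of the 18700 tested (0.0535%). WT replicate 2 stood at least 1 above both other WT libraries for 5 of 10 genes, among 7 such genes in all (0.0374%). On the split by 226 genes, both high trb45 libraries and the 3 trb123 libraries lay on the side away from WT, and so did line 2 replicates 1 and 3, in which the storage genes were low. The part of that split in the levels was not tested.

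The genes that shared these peaks were few. In line 2 replicate 2 the other 2 were EPR1, an extensin-like gene of the endosperm, and LEA (AT2G21490), a dehydrin gene. EPR1 was also high in WT replicate 2, at 5.49 FPKM against 0.27 and 0.32, and was not high in line 1 replicate 3, at 1.68 against 2.81 and 1.74. In line 1 replicate 3 the 14 others included the oleosin genes AT3G01570 and OLEO4, the cupin genes AT2G28490 and PAP85 and the embryo gene ATS3. They also included VSP1, NATA1 and JRG21, which are known as jasmonate-responsive. These genes were picked out after their values were seen.

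Within a group, the 3 libraries of a storage gene spanned a median range of 4.74 (log2) in line 1, 3.75 in line 2, 1.48 in WT and 1.13 in trb123. The median range over all genes was 0.35, 0.23, 0.21 and 0.19 in the same order. In each group the median range of the storage genes rested largely on 1 library. It fell to 0.31 without line 1 replicate 3 and to 0.13 without line 2 replicate 2. It fell to 0.4 without WT replicate 2 and to 0.08 without trb123 replicate 2. Single genes could differ: the CRA1 range in WT, 3.08, lay between replicate 1 (0.62 FPKM) and replicate 3 (12.7 FPKM). A range of at least 2 was reached by 9 of 10 genes in line 1 (0.262% of all genes), 7 of 8 in line 2 (0.0749%), 4 of 10 in WT (0.0428%) and 0 of 10 in trb123 (0.0214%).

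Against this spread, 0 of 8 storage genes were called by limma in line 1 against WT, where 18.2% of all genes were called, and 0 of 8 had an unadjusted p under 0.05. Fold changes ran from 0.06 for OLEO2 to 2.61 for SESA2 and SESA3, with adjusted p-values of 0.176 to 0.943 in limma. CRU2 and SESA4 were higher in every line 1 library than in every WT library, which 13.4% of genes were, but were outside the fit. In line 2 against WT, 0 of 8 were called (30.5% of all genes), with 0 at an unadjusted p under 0.05 in limma and fold changes of -0.75 (CRA1) to 1.35 (SESA3). In line 1 against line 2, 0 of 8 were called by limma where 4.63% of all genes were, and again 0 had an unadjusted p under 0.05. The libraries overlapped for 8 of 8 genes between the lines. None of these values shows that the lines and WT were alike.

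Without line 1 replicate 3 and line 2 replicate 2, an alternative chosen after the values were seen, the albumins of line 2 lay at -0.3 (SESA1), -0.16 (SESA2), -0.2 (SESA3) and -0.7 (SESA5) against WT. CRA1 then lay at -2.01 ± 0.68 in line 2 (limma adjusted p = 0.0443) and OLEO2 at -1.11 ± 0.35 (limma adjusted p = 0.0347). The libraries were left out because these genes were high in them, so these values are a description and no test of the genotype. In line 1, whose remaining libraries share the side of WT on the split, 0 of 8 genes were called, and CRA1 lay at -1.39 ± 0.68 and SESA2 at 0.94 ± 0.57.

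**Figure D2:**
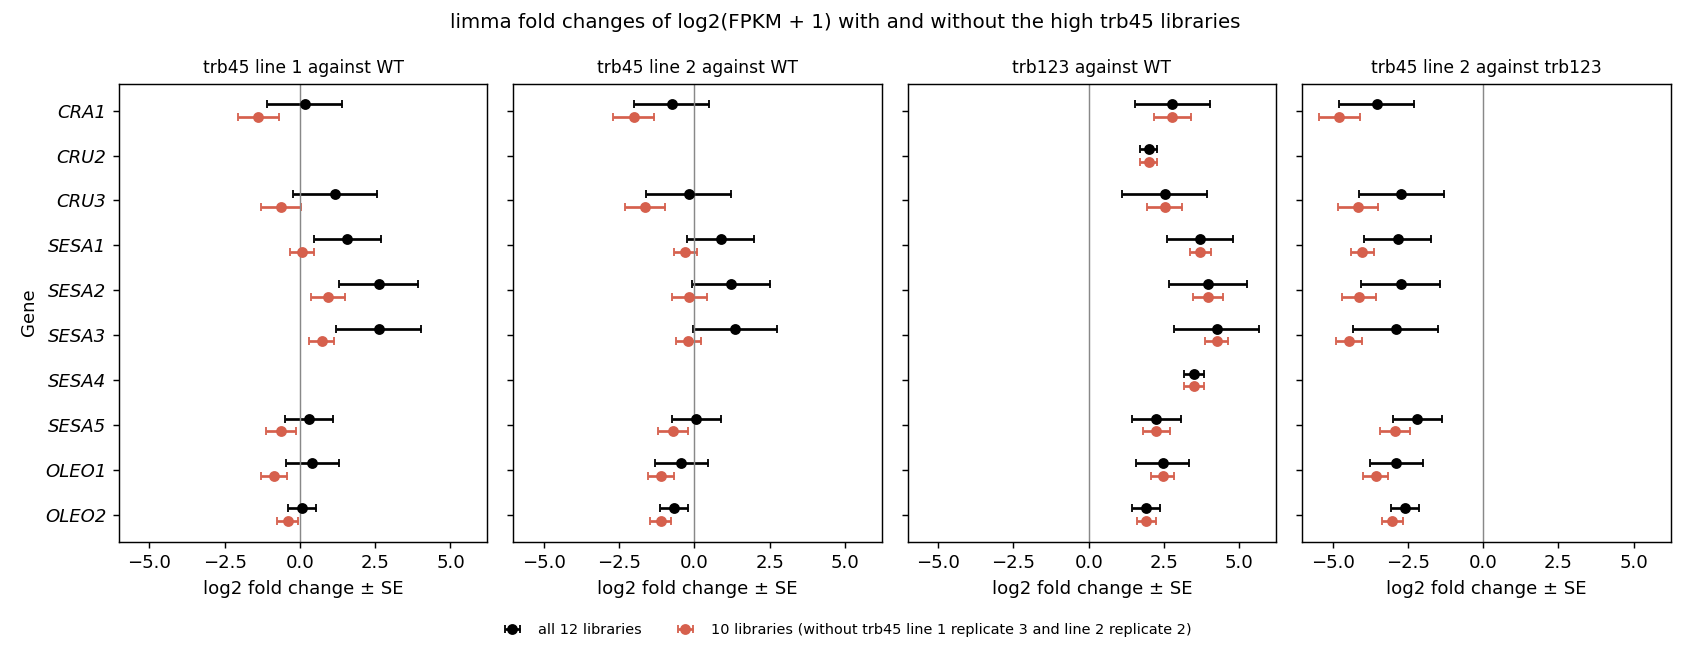
limma fold changes of log2(FPKM + 1) with standard errors in 4 comparisons, with all 12 libraries (black) and without line 1 replicate 3 and line 2 replicate 2 (red). CRU2 and SESA4 were tested in trb123 against WT only. The trb123 values lie between 1.91 and 4.26 in both, with shorter error bars in red except for CRU2 and SESA4, and the trb45 values move to the left in red.

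Between the mutants, 5 of 8 genes were called lower in line 2 than in trb123, where 51.7% of all genes were called and 30.6% called lower. Both groups lie on the same side of the split by 226 genes. CRA1 lay at -3.53 ± 1.25 (limma adjusted p = 0.0311), OLEO1 at -2.88 ± 0.88 (limma adjusted p = 0.0148) and OLEO2 at -2.59 ± 0.46 (limma adjusted p = 0.000415). SESA1 lay at -2.83 ± 1.11 (limma adjusted p = 0.048) and SESA5 at -2.18 ± 0.8 (limma adjusted p = 0.0353). CRU3, SESA2 and SESA3, at -2.71, -2.74 and -2.9, did not pass (limma adjusted p = 0.124, 0.0943 and 0.1). For 4 of 8 genes (CRA1, SESA5, OLEO1 and OLEO2) every line 2 library was below every trb123 library, as for 38.0% of all genes. All 8 were called without line 2 replicate 2 and also without line 1 replicate 3, where SESA1 and SESA5 reached the filter only through trb123. The genes were high in the libraries left out there, so these higher counts add no support. The share of all genes called was not taken for fits with a library left out. Only 1 was called without line 2 replicate 1, line 2 replicate 3, trb123 replicate 1 or trb123 replicate 3, and 3 without trb123 replicate 2. This comparison and the one with WT share the trb123 libraries.

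By the median of its libraries, trb123 had the highest level for 10 of 10 genes. By the mean it did so for 5, and line 1 did for CRU2, CRU3, SESA2, SESA3 and SESA4, through replicate 3. Medians of CRA1, for example, were 45.5 FPKM in trb123, 12.4 in WT, 1.85 in line 1 and 0.73 in line 2, and the last 3 groups overlapped.

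The make-up of the storage transcripts was taken over the 8 genes listed for every group. Their summed FPKM was 2.6, 40.6 and 21.3 in WT, 11.8, 9.83 and 484 in line 1, 4.49, 133 and 2.35 in line 2, and 220, 122 and 213 in trb123. Line 1 replicate 3 thus held more than any trb123 library, and line 2 replicate 2 about as much as trb123 replicate 2. Even there the sum was only 0.0747% of the FPKM of the library.

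The high trb45 libraries had nearly the same make-up as each other. Albumins made up 62.9% of the sum in line 1 replicate 3 and 62.8% in line 2 replicate 2, cruciferins 31.2% and 31.4%, and oleosins 5.9% and 5.8%. In trb123 the oleosin share was larger, at 16.4%, 14.7% and 15.9%, and the albumin share was 52.9%, 39.9% and 53.8%. In WT replicates 2 and 3, cruciferins led with 51.3% and 71.7%, and in WT replicate 1, with a sum of only 2.6 FPKM, oleosins led with 69.6%. Among the low libraries, line 2 replicate 1 had an albumin share of 60.8%, near that of the high ones. These shares differ between single libraries of different lines and were not tested.

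**Figure D3:**
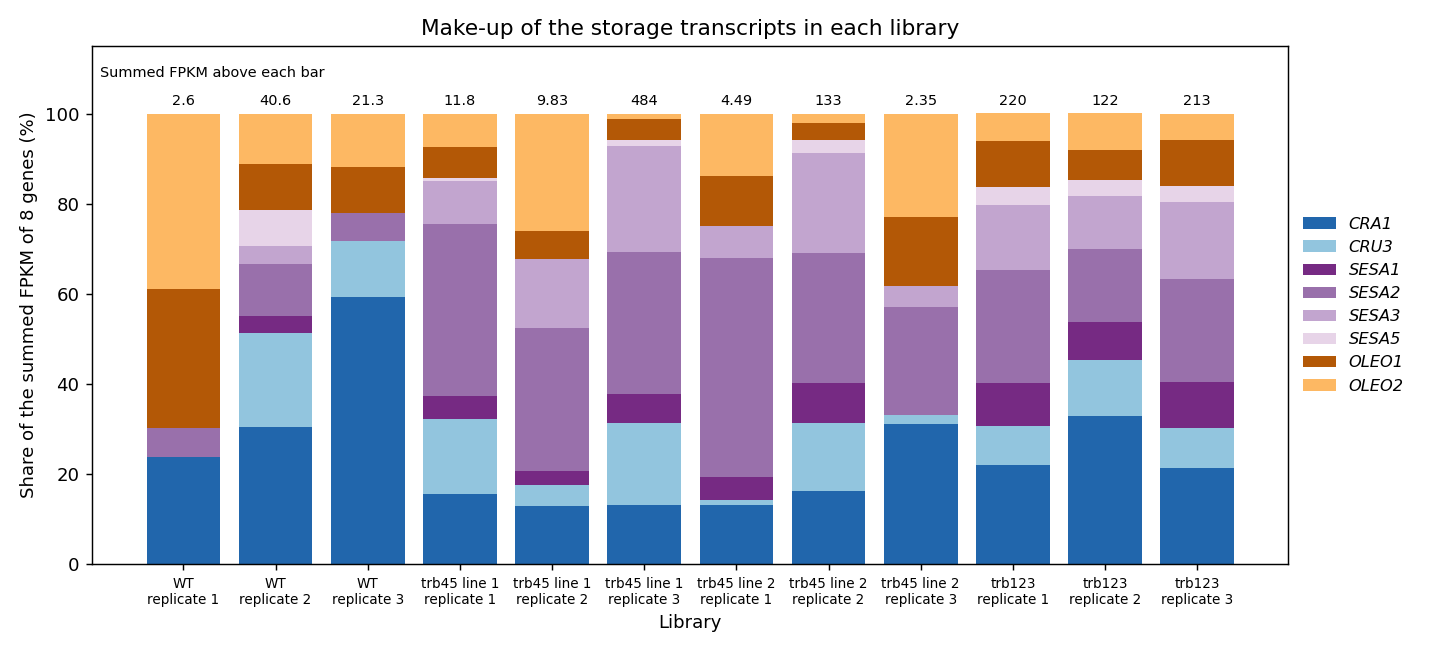
Share (%) of each gene in the summed FPKM of the 8 genes listed for every group, by library; the number above a bar is the sum in FPKM. Line 1 replicate 3 (484) and line 2 replicate 2 (133) have near-equal bars with oleosin shares of 5.9% and 5.8%, against 14.7% to 16.4% in trb123.

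Other seed gene lists were set beside these genes. Their counts in trb123 against WT stand against 33.9% of all genes called higher and 25.5% called lower. In trb123, genes of the late seed programme rose with them: 11 of 15 late embryogenesis abundant (LEA) and other late seed genes were called higher and 0 lower, with a median of 0.92. PER1, a seed peroxiredoxin, rose by 2.03 ± 0.3 (limma adjusted p = 9.67e-05), from 2.34 ± 0.95 FPKM (SD, n = 3) to 12.5 ± 3.09. ECP63 rose by 1.81 ± 0.16 (limma adjusted p = 1.1e-06) and M17 by 1.24 ± 0.25 (limma adjusted p = 0.000841). Among 4 other cupins, PAP85, a vicilin-like storage protein, and AT2G28490 rose by 2.5 and 1.93, and AT4G36700 fell by 0.91. Of 3 other oleosins, AT3G01570 and AT2G25890 rose by 1.75 and 1.04. Of 3 other oil body genes, AT1G05510, CLO4 and RD20 all rose, by 0.61 to 1.4. In these lists ECP63, AT5G44310, AT4G36600, AT2G28490, OLEO4 and AT1G05510 reached the filter on low values only through trb123, so they add no support.

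Genes for handling the reserves also changed in trb123. Of 7 genes for the storage vacuole and its proteases, 5 rose and 1 fell. TIP3;1, a tonoplast aquaporin of the seed, rose by 2.67, and DELTA-VPE, a seed coat processing protease, by 2.41. GAMMA-VPE, a vegetative processing protease, fell by 1.5 on the log2 scale. ALPHA-VPE was not called, at 0.94 to 1.27 FPKM in WT and 0.85 to 1.43 in trb123. BETA-TIP, among the 5, reached the filter on low values only through trb123, so its call adds no support. Over all genes, 59.4% were called in this comparison, 33.9% higher and 25.5% lower. Against the same shares, 5 of 6 genes for reserve mobilisation rose and 1 fell, led by the glyoxylate cycle genes ICL (3.52) and MLS (1.34). ICL went from 4.25 ± 1.43 FPKM (SD, n = 3) in WT to 60.2 ± 20.9 in trb123. The lipase gene SDP1 fell by 0.54.

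Among regulators of seed maturation, ABI5 rose by 1.65 ± 0.14 in trb123 (limma adjusted p = 8.99e-07), from 0.8 ± 0.17 to 4.65 ± 0.7 FPKM (SD, n = 3), EEL by 1.43 and ABI3 by 0.68, while WRI1, a regulator of oil synthesis, fell by 0.41. In all, 4 of 6 rose and 1 fell, so 5 of 6 were called where 59.4% of all genes were. ABI5, among them, reached the filter on low values only through trb123, so its call adds no support. Of 5 repressors, HSI2 (also called VAL1) fell by 1.04 ± 0.15 (limma adjusted p = 6.8e-05) and ASIL1 by 0.81 ± 0.2 (limma adjusted p = 0.00312). Both also differed between the libraries of line 1. Replicate 3 differed from the mean of the other libraries of that line by -0.66 (log2) for HSI2 and -0.91 for ASIL1. That library lies on the side of line 2 and trb123 on the split by 226 genes. The part of that split in the falls of HSI2 and ASIL1 was not tested. Of 8 ABA and dehydration genes of the shoot, 5 fell (25.5% of all genes), among them RAB18 by 4.25 on the log2 scale, and LTI30 rose by 0.6. HAI1 and HAI2, also among the 5, reached the filter only through WT, so their calls add no support.

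In the trb45 lines the ABA list was called lower for 5 of 8 genes in line 1 (10.4% of all genes) and 6 of 8 in line 2 (15.6%). HAI1 and HAI2, called lower in both lines, reached the filter on low values only through WT, so their calls add no support. HSI2 and ASIL1 fell in line 2 as well, which shares the side of trb123 on the split by 226 genes. LEA and late seed genes, which rose in trb123, were called lower for 3 of 15 in line 1 (10.4% of all genes) and 5 of 15 in line 2 (15.6%), with 0 called higher, and LEA7 fell by 1.73 ± 0.28 and 1.57 ± 0.28 (limma adjusted p = 0.00172 and 0.00185). AT2G42560 of the LEA list, called lower in both lines, also reached the filter only through WT, so its calls add no support. These comparisons share the WT libraries as reference. In line 1 replicate 3, LEA and late seed genes had a median difference of -0.16 from the other libraries of the line, against 4.58 for the storage genes, and that library was the highest for 3 of 15. In line 2 replicate 2 their median difference was 0.64, against 3.64, and it was the highest for 14 of 15. Summed over the 15 genes, line 1 had 25.9, 57.7 and 30.1 FPKM and line 2 had 27.6, 46.1 and 15.1. The sum was 57.9 to 58.2 in WT and 99.1 to 148 in trb123. The high level of line 1 replicate 3 was thus not shared by the LEA list.

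**Figure D4:**
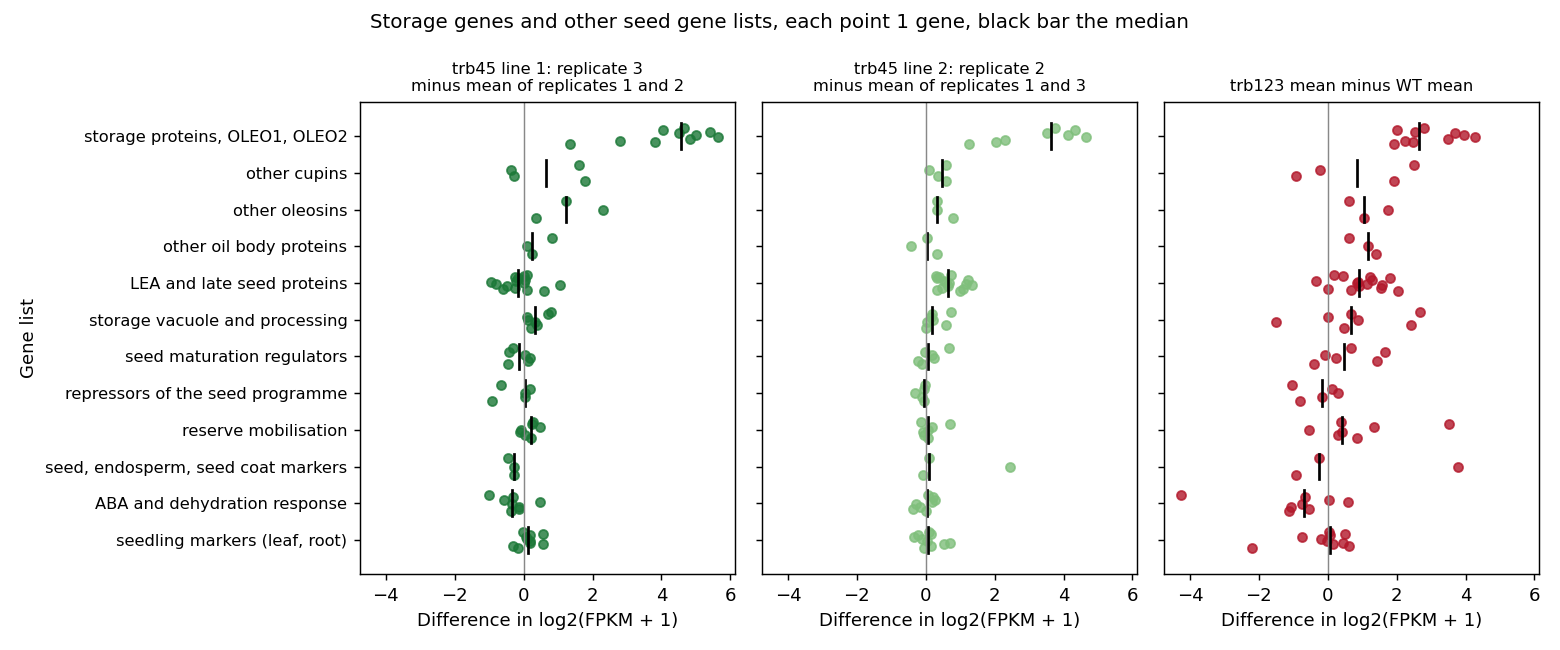
Differences in log2(FPKM + 1) for each gene of the seed and seedling lists: line 1 replicate 3 minus the mean of the other libraries of the line, line 2 replicate 2 likewise, and trb123 mean minus WT mean. Black bars are list medians. The storage genes and oleosins have medians of 4.58, 3.64 and 2.65, and the LEA and late seed list has -0.16, 0.64 and 0.92.

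Markers of other seed tissues were read beside these results. Of 8 genes for dormant seed, endosperm and seed coat, 3 were tested, namely DOG1, EPR1 and CYP707A2, and none of the 3 was at 0. Their summed level was 13.2 to 17.7 FPKM in WT, 10.6 to 14 in line 1, 11.4 to 17.7 in line 2 and 29.6 to 40.9 in trb123. In trb123, EPR1 rose by 3.79 ± 0.64 (limma adjusted p = 0.000255), CYP707A2, an ABA hydroxylase gene, fell by 0.92, and the dormancy gene DOG1 had 0.62 to 0.76 FPKM against 0.69 to 1.27 in WT. Leaf and root markers were present in all libraries, CAB1 for example at 11985 ± 1193 FPKM (SD, n = 3) in WT. Of 10 of them, 2 were called higher and 2 lower in trb123, where 33.9% of all genes were called higher and 25.5% lower. The part of seed tissue or of remaining seeds in the levels of the storage genes was not tested.

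Some genes followed the profile of the storage genes over the 12 libraries more closely than others. Likeness was the root mean square difference between a gene's centred log2(FPKM + 1) and the mean of the 8 storage genes, which themselves lay at 0.37 (SESA1) to 0.96 (OLEO2). The median over all genes was 1.78. The closest other genes were the cupin AT2G28490 (0.99), the oleosin AT3G01570 (1.06), AT5G55410 of the lipid transfer and albumin superfamily (1.12), PER1 (1.12), PAP85 (1.12), TIP3;1 (1.13), LEA (1.13), AT1G04560 (1.18), CORI3 (1.19) and EPR1 (1.21). AT2G28490 had 5.42, 3.89 and 5.7 FPKM in trb123, 2.72 in line 1 replicate 3 and 0.02 to 0.97 in the other libraries. AT5G55410 was high in trb123 only, at 8.99 to 12.3 FPKM, with 1.34 in line 1 replicate 3 and 1.83 in line 2 replicate 2. AT2G28490, AT5G55410 and AT1G04560 reached the filter on low values only through trb123, so their likeness adds no support.

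Reads of the albumin genes could in principle be shared, since SESA1 to SESA4 transcripts are 85.7% to 91.0% identical over their aligned bases. In TAIR10.1, 0 of the 50-base words in the exons of the 10 genes occur elsewhere in the genome. OLEO1 overlaps the opposite-strand gene AT4G25150 by 44 bases, which had 0.56 to 2.54 FPKM, and OLEO2 overlaps AT5G40410 by 15. Whether the counting used strand is not given in the sources used here.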

How the data were processed

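Per the labels' protocols, seedlings aged 7 days were ground, RNA was taken with a column kit and stranded mRNA libraries were sequenced. The authors deposited FPKM as a table for each group, and the gene lists of the tables differ. The submitters' processing notes name STAR 2.7.1, DESeq2 and the build TAIR10; the counter, the annotation and the rule for listing genes are not given in the sources used here. Line 1 values carry decimal commas (61165 cells), read as points, and all deposited columns were used.

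The tables were joined by gene ID (20114 genes listed for every group). The 18700 genes with at least 1 FPKM in at least 3 libraries were tested on log2(FPKM + 1) with limma 3.58.1 in R 4.3.3: 1 fit of 4 group means, eBayes with trend, Benjamini-Hochberg adjustment within each of 5 comparisons. The pseudocount of 1 understates the change of low genes. CRU2 and SESA4, not listed for line 2, were tested in a fit of the WT and trb123 tables. The code was tested on simulated data. No count test was run, since whole fragments were not recovered for each gene. Fragment numbers are estimates from a fitted depth and exon lengths of the RefSeq annotation of TAIR10.1, whose upstream sequence was also used; 21158 of 21271 IDs matched it.

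Of the gene lists, called genes were named, at most 6 per list by size of change, and 10 genes by likeness of profile. The genes studied and the lists were chosen with earlier results of these data known. A further list of 7 oleosin-domain genes of the anther tapetum had 0 members in the main fit, and GRP19 rose by 1.5 in trb123 in the fit of 2 tables. There GRP19 reached the filter only through trb123. Alternatives covered scaling, pseudocount, filter, variance model, libraries in the fit, replicate block, threshold and leaving out each library.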

Additional observations from a re-analysis of the deposited data

How the results depend on the processing

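No storage gene was called in line 1 against WT or in line 1 against line 2 under the settings run; with the compared groups only, 6 and 5 of the 8 genes were tested there. In trb123 against WT it was 8, and 2 to 10 when 1 library was left out. A robust eBayes gave 5 and an adjusted p under 0.01 gave 3. In line 2 against trb123 it was 5, and 1 to 8 without 1 library, 2 with robust eBayes and 1 at an adjusted p under 0.01. Without line 1 replicate 3 and line 2 replicate 2 together, an alternative chosen after seeing the data, the counts were 10 in trb123 and 8 in line 2 against trb123, and 2 genes were called in line 2 against WT, which otherwise had 0. Those libraries were left out because the genes were high in them, and SESA1, SESA5 and OLEO1 then reached the filter only through trb123, so these counts add no support. The share of all genes called was not taken for the alternatives named here, and the cause of these moves was not tested.

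Fold changes that did not pass could change sign when 1 library was left out. In line 1 against WT they ranged from -1.39 to 1.02 for CRA1, -0.64 to 2.31 for CRU3, -0.63 to 1 for SESA5, -0.86 to 1.09 for OLEO1 and -0.4 to 0.52 for OLEO2. In line 2 against WT the ranges were -1.63 to 0.59 for CRU3, -0.3 to 1.53 for SESA1, -0.16 to 2.17 for SESA2, -0.2 to 2.19 for SESA3 and -0.7 to 0.77 for SESA5. In line 1 against line 2 they were -0.64 to 2.17 for CRA1, -0.46 to 2.79 for CRU3, -0.8 to 1.88 for SESA1, -0.28 to 2.77 for SESA2, -0.63 to 2.8 for SESA3, -0.7 to 1 for SESA5 and -0.43 to 1.52 for OLEO1.

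Deviations of same-numbered libraries correlated at -0.056 to 0.318 over genes, highest between WT and line 2 for replicate 2. Different-numbered libraries were not compared, so these values do not show whether the numbers pair the samples. With the replicate block, 8 genes were called in trb123 against WT, 4 in line 2 against trb123 and 0 in the other comparisons. CRU3 at 0.05 FPKM rests on about 2.2 fragments and SESA5 at 0.1 on about 1.9, and differences between libraries at that level were not detectable at this depth.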
